A study of Mus musculus with 27 samples.

Results

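Macrophages lacking GRIP1 were set against wild-type macrophages after 24 h with dexamethasone, a synthetic glucocorticoid. The comparison used 7 of the 27 RNA sequencing libraries of the series, 4 from knockout and 3 from wild-type cultures, taken by the genotype and treatment that name their columns in the count table. The knockout cultures (replicates 1 to 4) came from C57BL/6 mice labelled LysM-Cre+/+; GRIP1fl/fl. The wild-type cultures (replicates 1 to 3) came from C57BL/6 mice whose genotype field reads LysM-Cre+/+ ; GRIP1wt/wt but whose titles read BL6, so the labels leave it unsettled whether they carried Cre. All mice were males 8 to 10 weeks old. Bone marrow cells grew for 5 days in medium that held 20% serum and 10% conditioned medium of L cells, and the adherent cells then received dexamethasone at 100 nM. Cre made from the Lyz2 (LysM) locus acts in myeloid cells, so other cells in the same dish keep their floxed Ncoa2. The sources used here do not say which part of the gene is floxed. Whether replicates came from separate mice is not said in the labels. The edgeR p-values rest on the spread within groups over all 27 libraries, which were fitted together, and that spread may therefore be technical. The exact permutation tests used these 7 libraries only.

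GRIP1, the product of Ncoa2, is a member of the p160 coregulators together with the products of Ncoa1 and Ncoa3. The glucocorticoid receptor is a hormone-activated transcription factor that, once it holds dexamethasone, recruits p160 proteins to induce genes such as Tsc22d3 and Fkbp5. In macrophages GRIP1 is also known to act with the receptor at inflammatory genes that glucocorticoids repress. The comparison asks which genes differ with the loss of GRIP1 while the receptor is active, and which of those differences belong to macrophages.

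The 7 libraries held 20162729 to 32384059 counts. Levels are given as CPM, counts scaled to library size, and differences as fitted log2 fold changes, knockout minus wild type, with the standard error (SE). A gene was called when edgeR's quasi-likelihood test gave an adjusted p under 0.05 over the 14589 genes tested. By that rule 2512 genes (17.2%) were called, 978 (6.7%) higher and 1534 (10.5%) lower in knockout cells. The libraries of the groups did not overlap for 4062 genes (27.8%). Wild-type replicate 1 stood apart from the other wild-type libraries in transcripts of other cell types, as described below. Without it 1540 genes were called, 561 higher and 979 lower, and 1462 of them were among the 2512 with the same direction.

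Ncoa2 (chromosome 1, bases 13139105 to 13374083 of GRCm38, minus strand) had 18.9, 24.9, 18.9 and 25.8 CPM in the knockout libraries, against 76.4, 93.4 and 89.2 CPM in the wild-type libraries. All 4 knockout libraries lay far below all 3 wild-type libraries, and the fall was 1.96 ± 0.15 on the log2 scale (edgeR adjusted p = 1.89e-09). The fitted level was 3.89-fold lower, and the counts do not separate reads of the floxed part from the rest of the gene. Ncoa1 had 48.7, 49.2, 54.1 and 60.7 CPM in knockout and 47.5, 59.1 and 56.8 CPM in wild-type libraries, and the groups overlapped. Ncoa3 had 196 to 254 CPM in knockout and 210 to 243 CPM in wild-type libraries, with a log2 fold change of -0.03 ± 0.11. Nr3c1, which encodes the glucocorticoid receptor, had 84.2 to 93.6 CPM in knockout and 75.7 to 91.3 CPM in wild-type libraries, with a log2 fold change of 0.04 ± 0.10. Neither p160 paralog nor the receptor gene was called. Lyz2, whose locus carries the Cre, had 50.8, 22.2, 38.9 and 29.2 CPM in knockout and 27.8, 28.4 and 32.3 CPM in wild-type libraries and was not called.

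Of 37 tested genes for the receptor, its chaperones and its coregulators, 3 were lower and 1 was higher in knockout cells, 10.8% called against 17.2% of all genes, and 2 were called with the stromal and neutrophil list means as covariates, a fit described further on. Beside Ncoa2, these were Tbl1x, a subunit of corepressor complexes (-0.39 ± 0.08 SE, edgeR adjusted p = 0.0018), Hsp90aa1, a chaperone of the receptor (-0.25 ± 0.08 SE, adjusted p = 0.023), and Ncoa4, the cargo receptor for ferritin breakdown (0.37 ± 0.11 SE, adjusted p = 0.025). The calls of Hsp90aa1 and Ncoa4 were lost without wild-type replicate 1 and without knockout replicate 4. The call of Hsp90aa1 was also lost without knockout replicate 3. The median of the list was 0.00, as over all genes tested.

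The defining macrophage genes overlapped between the genotypes. Csf1r, the receptor for the macrophage growth factor, had 2349, 2047, 2122 and 2241 CPM in knockout and 1846, 2216 and 2330 CPM in wild-type libraries. Adgre1, which encodes F4/80, had 1796, 2024, 1630 and 1872 CPM in knockout and 1648, 1711 and 1824 CPM in wild-type libraries. The groups overlapped for both. With the stromal and neutrophil list means as covariates, Csf1r was called lower in knockout cells (-0.38 ± 0.11 SE) and Adgre1 was not called. The summed level of 33 macrophage identity genes was 33559 to 37919 CPM in knockout and 32938 to 33886 CPM in wild-type libraries (exact permutation test, two-sided p = 0.171). Within this list 3 genes were higher and 4 lower in knockout cells, 21.2% called against 17.2% of all genes. Cd33, an inhibitory sialic acid receptor, had 217, 180, 207 and 237 CPM in knockout and 104, 115 and 124 CPM in wild-type libraries. Siglec1, another sialic acid receptor, had 103 to 143 CPM in knockout and 175 to 207 CPM in wild-type libraries. Marco, a scavenger receptor, had 167, 64.2, 105 and 85.9 CPM in knockout and 200, 311 and 356 CPM in wild-type libraries. Each of these 3 genes differed without overlap, Cd33 by 0.88 ± 0.13, Siglec1 by -0.68 ± 0.12 and Marco by -1.46 ± 0.31 on the log2 scale (SE, edgeR adjusted p = 4.7e-05, 0.00024 and 0.0023). Fcgr1, the high-affinity Fc receptor, was lower in knockout cells (log2 fold change -0.73 ± 0.14 SE). Fcgr2b, the inhibitory Fc receptor, was called higher (1.5 ± 0.46), yet its libraries overlapped, with 136, 438, 117 and 406 CPM in knockout and 178, 59.7 and 55 CPM in wild-type cultures. Its call was lost without knockout replicate 2 or replicate 4, and without wild-type replicate 2 or replicate 3. Slc11a1 and Ptprc were the other called members. The call of Slc11a1 was lost without knockout replicate 4 and without wild-type replicate 2 or replicate 3, and that of Ptprc without replicate 1 of either genotype.

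Transcripts of stromal cells, the fibroblast-like cells of the marrow that make collagen, were lower in knockout cultures. Col1a1, the main fibrillar collagen, had 4.06, 12.5, 13 and 3.05 CPM in knockout and 357, 148 and 88.4 CPM in wild-type libraries, a fall of 4.61 ± 0.72 on the log2 scale (edgeR adjusted p = 0.00017). Acta2, smooth muscle actin, had 4.8, 9.73, 14.3 and 5.04 CPM in knockout and 264, 115 and 81.9 CPM in wild-type libraries. Postn, a matrix protein of fibroblasts, had 1.48, 4.30, 4.99 and 2.27 CPM in knockout and 62.7, 33.0 and 23.4 CPM in wild-type libraries. Wild-type replicate 1 was the highest library for each of these, and the lowest wild-type library still exceeded the highest knockout library. Cnn1, a smooth muscle protein, had 0 counts in all 4 knockout libraries and was at least 63.4-fold lower there, taking 3 counts summed over the knockout libraries as the floor, which covers counting error only. Of 37 stromal markers tested, 32 were lower and 0 higher, 86.5% against 10.5% of all genes called lower, with a median log2 fold change of -3.28. Since the markers were not chosen blind to these data, these counts are a description. The summed level of the 40 markers was 483 to 823 CPM in knockout and 1422 to 3566 CPM in wild-type libraries (exact permutation test, two-sided p = 0.0571, the smallest that 35 arrangements allow). Most of the knockout sum came from Igfbp4, which was not called at 615, 315, 576 and 361 CPM in knockout and 308, 463 and 497 CPM in wild-type libraries, and the difference of the sums, knockout minus wild type, was -1.75 log2 units with it and -3.23 without it. In bulk RNA, fewer cells of a type and less RNA per cell cannot be told apart.

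Granule transcripts of neutrophils were lower too. Ngp, neutrophilic granule protein, had 0.646, 0.379, 0.285 and 0.466 CPM in knockout and 39.1, 13.6 and 8.76 CPM in wild-type libraries, 46.0-fold lower in knockout cells in the fit. S100a9, a subunit of calprotectin, had 2.12, 1.05, 0.749 and 1.31 CPM in knockout and 70.5, 27.7 and 16.4 CPM in wild-type libraries. Ltf, lactoferrin, had 0.155 to 0.250 CPM in knockout and 3.95 to 14.7 CPM in wild-type libraries. Groups were fully separate for all 3, and wild-type replicate 1 was again the highest. Stfa1, a stefin of granulocytes, had 0 counts in knockout libraries, at least 26.0-fold lower, a call lost without wild-type replicate 1. Of 21 neutrophil markers tested, 14 were lower and 1 higher, 71.4% called against 17.2% of all genes, with a median of -4.10. The defining precursor marker Elane was too low to be tested and Ly6g had 0 counts in all 7 libraries. Mmp8, a collagenase of neutrophil granules, made up most of the list's summed level and had the opposite sign, with 185, 166, 202 and 177 CPM in knockout and 134, 112 and 147 CPM in wild-type libraries (0.48 ± 0.17 SE, edgeR adjusted p = 0.0498). Its call was lost in 6 of the 7 fits that leave out a library, all but that without wild-type replicate 3. It was also lost with RLE scaling, no filter on low counts, the default fit of edgeR 4 and the replicate number as a block. The stromal and neutrophil list means as covariates removed it too. The same held without the 4 libraries high in Arg1, named below, and without the 4 wild-type libraries numbered 1. The sum was 179 to 219 CPM in knockout and 198 to 343 CPM in wild-type libraries (exact permutation test, two-sided p = 0.343). Without Mmp8 the difference of the sums was -2.75 log2 units. With wild-type replicate 1 and knockout replicate 2 both left out, the difference of the full sums was 0.0013 log2 units.

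**Figure D1:**
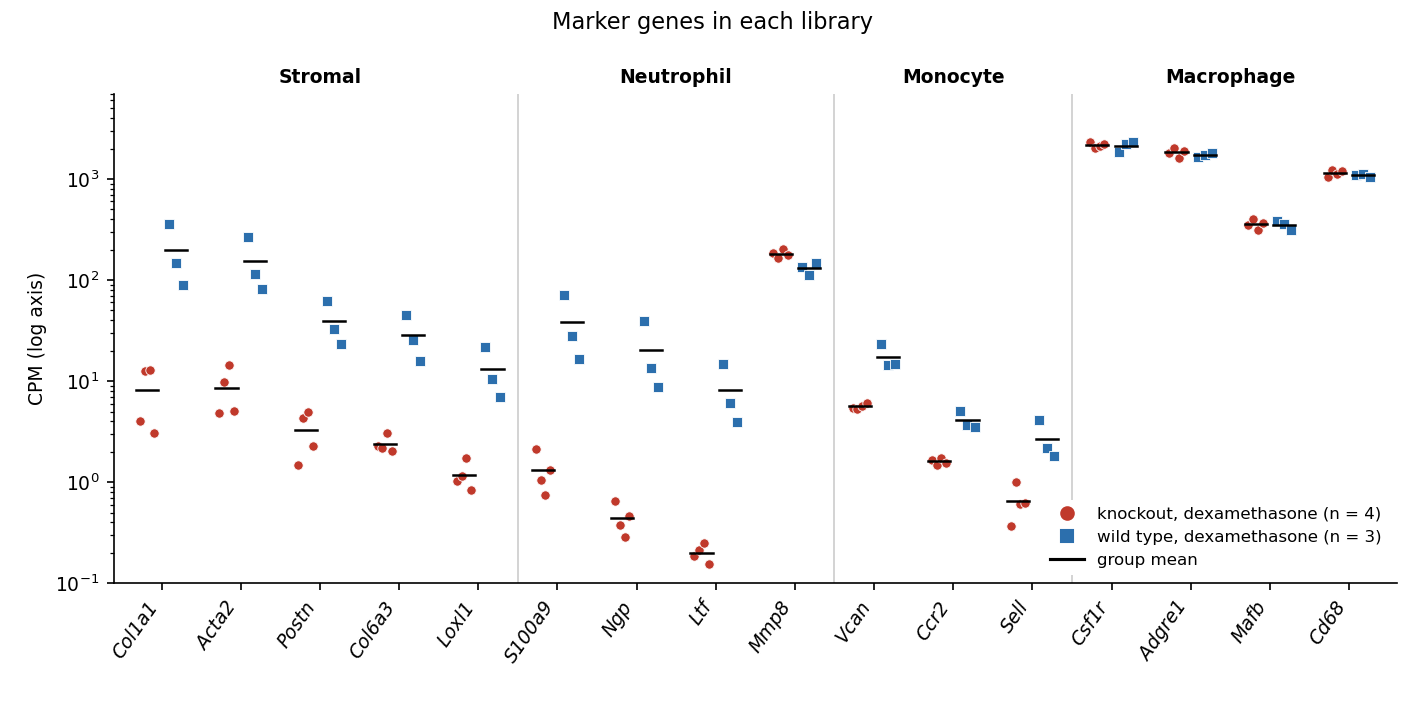
CPM on a log axis of marker genes of 4 cell types in each library, knockout with dexamethasone (red circles, n = 4) left of wild type with dexamethasone (blue squares, n = 3), bars at the group means. Stromal, monocyte and most neutrophil markers lay lower in every knockout library, Mmp8 lay higher, and the 4 macrophage genes overlapped between the genotypes.

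Monocyte markers were lower as well. Ccr2, the receptor that brings monocytes out of the marrow, had 1.66, 1.47, 1.75 and 1.55 CPM in knockout and 5.08, 3.71 and 3.51 CPM in wild-type libraries. Vcan, a proteoglycan of classical monocytes and fibroblasts, had 5.27 to 6.06 CPM in knockout and 14.3 to 23.0 CPM in wild-type libraries. The groups did not overlap for either gene. Of 13 monocyte markers tested, 8 were lower and 0 higher, 61.5% against 10.5% of all genes called lower. The count was 3 without wild-type replicate 1, 5 without knockout replicate 2, 4 without knockout replicate 4 and 0 with covariates. The list summed to 327 to 446 CPM in knockout and 616 to 1076 CPM in wild-type libraries. Its members with large gaps included Fn1 and Chil3, both described further on. Mean levels were 15.7 CPM in knockout and 165 CPM in wild type for Fn1, and 49.1 and 179 CPM for Chil3. Of the 13 tested members, 9 followed the stromal or neutrophil list, by a measure described below. Of the 7 tested dendritic cell markers 2 were lower, Fscn1, which fibroblasts also express, and Ccr7, whose call was lost without wild-type replicate 1. Of 7 B cell markers 2 were lower, Ighm and Ebf1, and Ms4a1 and Vpreb3 had 0 counts in all 7 libraries. Of 5 T and NK cell markers 2 were higher, Klrb1c and Il7r, while Cd3d, Cd3e, Cd3g, Cd8a and Cd8b1 had 0 counts in all 7 libraries. Of 6 mast cell and basophil markers 2 were lower, Gata2 and Mcpt8, on sums of 1.21 to 2.35 CPM in knockout and 1.66 to 4.68 CPM in wild-type libraries. Of 9 endothelial markers Esam was lower and Kdr higher, of 2 erythroid markers Car2 was higher, and 0 of 10 megakaryocyte markers were called. Against 17.2% of all genes, 28.6% of dendritic cell and 28.6% of B cell markers were called. The shares were 40% for T and NK cells, 33.3% for mast cells and basophils, 22.2% for endothelial and 50% for erythroid cells. These lists had few tested members. The calls of Gata2, Mcpt8, Il7r and Car2 were each lost without at least 1 library. The T and NK cell list summed to 118 to 146 CPM in knockout and 72.4 to 111 CPM in wild-type libraries. The B cell list summed to 187 to 220 CPM in knockout and 188 to 222 CPM in wild-type libraries.

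To tell macrophage genes apart from these transcripts, each gene's log2 CPM was freed of its group mean over all 27 libraries and correlated with the like residual of the stromal list and of the neutrophil list. The residuals of both list means went together across the 27 libraries (r = 0.86), so this measure cannot tell the lists apart from each other. That r is a description, since libraries may share cultures. Of the 2512 called genes, 894 had an r of 0.5 or more with at least 1 list, 845 of the 1534 lower genes and 49 of the 978 higher genes. A called gene was counted as told apart when both r lay between -0.5 and 0.5, when it was no marker of another cell type, and when it was also called in the same direction in a fit that held both list means as covariates. That left 314 genes (2.15%), 130 (0.891%) higher and 184 (1.26%) lower in knockout cells, of which 116 differed by at least 2-fold, 34 higher and 82 lower. The rule does not assign a gene to macrophages, so a gene of another cell type that follows neither list can pass it. With dexamethasone the list means of log2(CPM + 1) did not overlap between the genotypes, so the fit with covariates extrapolates. Its count moved with the libraries used. It was 126 without wild-type replicate 3, 184 without wild-type replicate 2 and 2 when only the 7 dexamethasone libraries were fitted. Without the 4 wild-type libraries numbered 1 in all treatments it was 19, although 307 of the 314 genes (97.8%) were still called in the same direction by the plain test there.

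**Figure D2:**
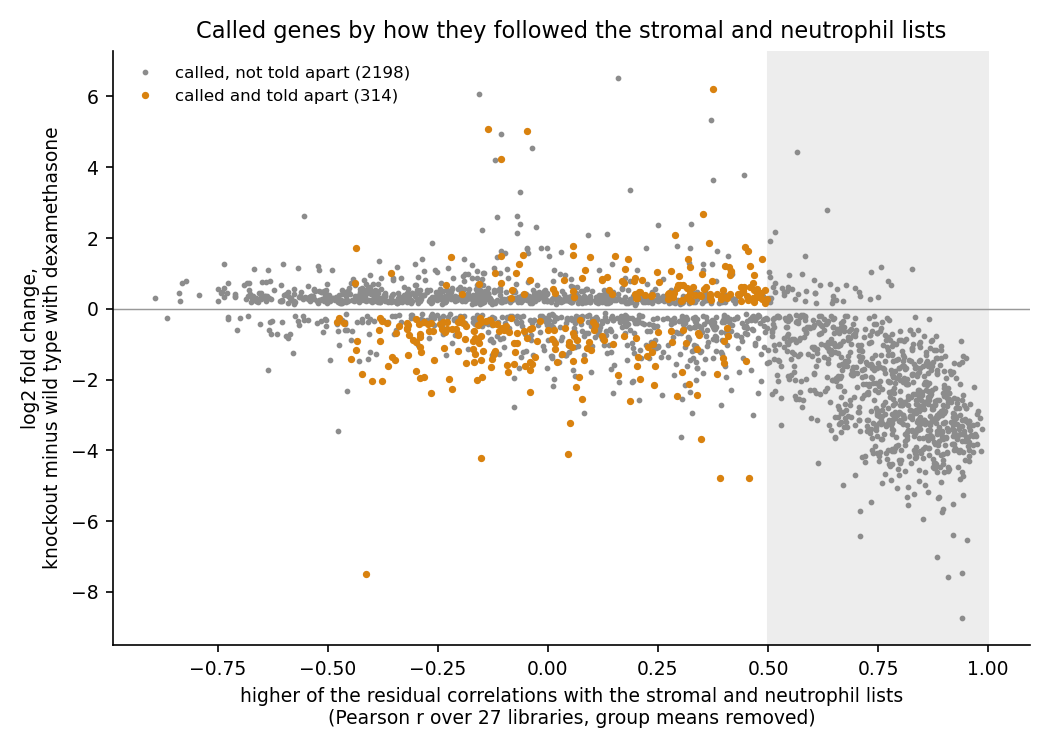
Log2 fold change (vertical axis) of the 2512 called genes against the higher of their residual correlations with the stromal and neutrophil lists (horizontal axis, Pearson r over 27 libraries). Orange points are the 314 genes told apart, and the grey area marks r of 0.5 and above, where most points are genes lower in knockout cells.

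Genes were named by size among those that reached 5 CPM in the higher group, did not overlap between the groups and carried no predicted or clone name. Of the genes told apart, Parvg had the largest rise under that rule. Parvg encodes gamma-parvin, a leukocyte protein that links integrins to actin, and had 207, 196, 209 and 213 CPM in knockout and 55.6, 54.7 and 59.5 CPM in wild-type libraries, 3.64-fold higher (log2 fold change 1.86 ± 0.07 SE, edgeR adjusted p = 5.21e-15). Gpr141, an orphan receptor of leukocytes, had 81.6, 71.5, 80.5 and 77.1 CPM in knockout and 21.2, 20.7 and 29.0 CPM in wild-type libraries (1.71 ± 0.12 SE, adjusted p = 3.7e-10). For both genes the replicates lay close together and the groups far apart. Lsp1, a leukocyte actin-binding protein, had 95.3, 53.7, 104 and 76.0 CPM in knockout and 24.3, 28.3 and 36.8 CPM in wild-type libraries. Napsa, the aspartic protease napsin A, had 73.2, 58.1, 73.7 and 69.9 CPM in knockout and 24.6, 23.9 and 28.6 CPM in wild-type libraries. Ltc4s, the enzyme that makes leukotriene C4, had 28.5, 34.7, 32.5 and 34.0 CPM in knockout and 12.0, 10.2 and 12.3 CPM in wild-type libraries. All 3 were higher in every knockout library, by 1.46 ± 0.19, 1.42 ± 0.10 and 1.5 ± 0.18 on the log2 scale in that order. Alox5, the 5-lipoxygenase that starts leukotriene synthesis, was told apart too, with 15.6, 15.7, 15.4 and 17.1 CPM in knockout and 5.82, 5.85 and 8.24 CPM in wild-type libraries (1.26 ± 0.14 SE). The other rises of this set were Ceacam19, a member of the carcinoembryonic antigen family, Stac2, an adaptor of calcium channels, Lyzl4, a lysozyme-like protein, Hddc3, a phosphohydrolase, and Spint1, a Kunitz protease inhibitor, with log2 fold changes of 1.42 to 1.78. Lsp1, Napsa, Ltc4s, Hddc3 and Lyzl4 overlap a gene on the opposite strand. So do the later-named Kif21a, Calml4, Arhgap6, Wnt5a, Cd276, Jaml, Dusp1, Ankrd37, Slc2a1, Hexa, Hmgcs1, Icam1, Ciita, H2-DMa, Fn1 and Fosl1. The sources used here give no strand setting for the counting.

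Over all called genes of the same kind, told apart or not, the 10 largest rises also held Kif21a, a kinesin, Calml4, a calmodulin-like protein, Acpp, an acid phosphatase, Ly6a, known as Sca-1, Arhgap6, a GTPase-activating protein, and F10, coagulation factor X. Acpp had 21.4, 27.9, 20.4 and 36.1 CPM in knockout and 8.16, 4.08 and 5.76 CPM in wild-type libraries (2.16 ± 0.25 SE). The call of F10 was lost without wild-type replicate 2 and without replicate 3. All of the 10 largest falls tracked a list with r of 0.5 or more. These were the granule genes Ngp, Ltf and S100a9 and the mesenchymal genes Actg2, Wnt5a, Fbln2, Col11a1, Col1a1, Ccn4 and Vgll3, with log2 fold changes of -5.54 to -4.47.

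Ccr3, the eotaxin receptor, had the largest fall among genes told apart under the same rule, with 2.40, 2.44, 1.6 and 1.62 CPM in knockout and 9.31, 8.20 and 8.76 CPM in wild-type libraries (-2.13 ± 0.16 SE, edgeR adjusted p = 2.27e-09). It was lower in every knockout library. Cd276, a costimulatory ligand known as B7-H3, had 1.80, 3.71, 2.32 and 2.02 CPM in knockout and 9.5, 9.38 and 8.20 CPM in wild-type libraries (-1.88 ± 0.23 SE). Dmpk, a kinase known from myotonic dystrophy, had 68.7, 45.6, 66.7 and 46.6 CPM in knockout and 129, 178 and 211 CPM in wild-type libraries (-1.6 ± 0.18 SE). The groups were apart for both. Eya1, a developmental phosphatase and coactivator, Gsta3, a glutathione transferase, and Cgnl1, a protein of cell junctions, were in the same set with Ncoa2. So were Dmwd and Igsf11, an adhesion molecule. Log2 fold changes of these genes were -1.98 to -1.61. Dmwd (bases 19076227 to 19082776 of chromosome 7) ends shortly before Dmpk (bases 19083849 to 19093821) starts, both on the plus strand.

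**Figure D3:**
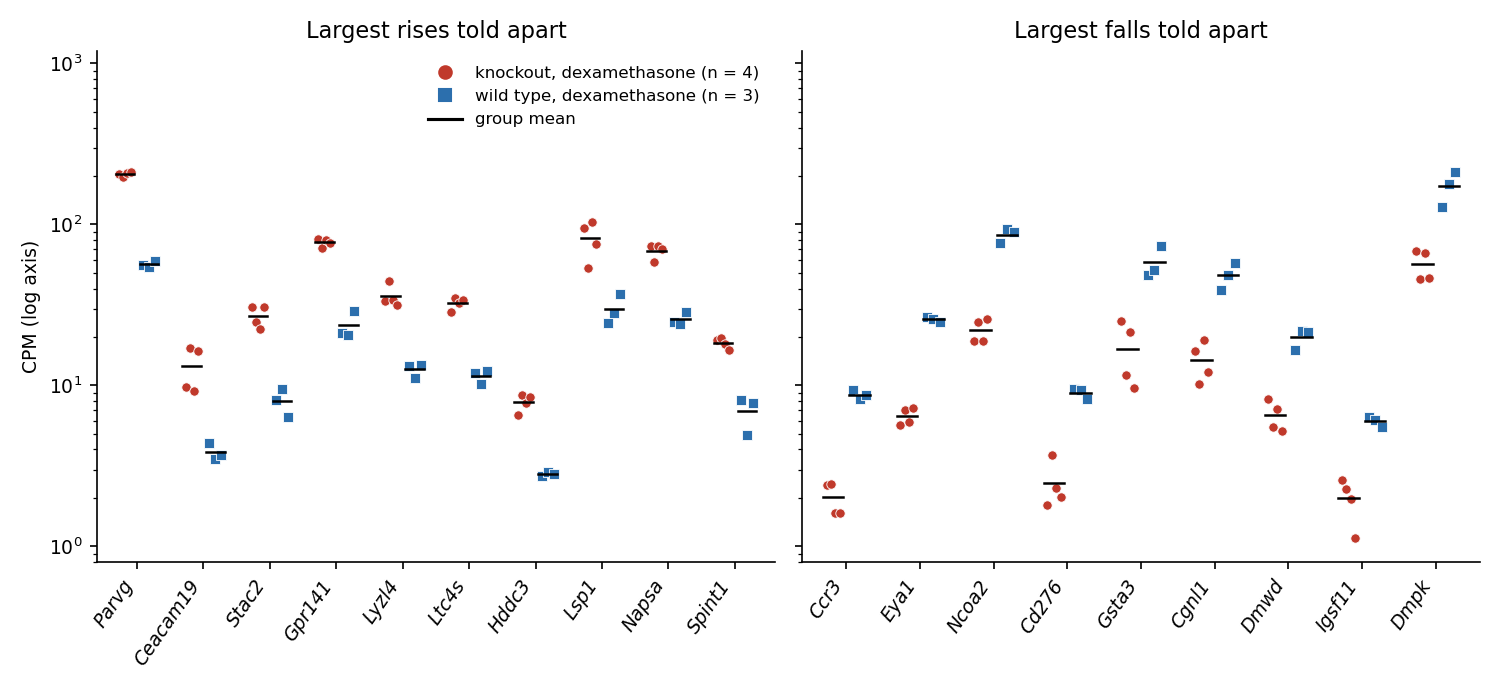
CPM on a log axis of the 10 largest rises (left panel) and 9 of the 10 largest falls (right panel) among genes told apart from stromal and neutrophil transcripts, knockout with dexamethasone (red circles, n = 4) left of wild type with dexamethasone (blue squares, n = 3), bars at the means. No gene shows overlap between the groups, and Parvg at about 200 CPM in knockout cultures has the tightest points.

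Known targets of the glucocorticoid receptor did not move as a block. Of 40 tested, 4 were higher and 9 lower in knockout cells, 32.5% called against 17.2% of all genes, with a median of -0.09, and 3 were called with covariates. Tsc22d3, the gene of the anti-inflammatory mediator GILZ, had 590, 533, 556 and 582 CPM in knockout and 388, 352 and 474 CPM in wild-type libraries (0.48 ± 0.11 SE, edgeR adjusted p = 0.0036). Fkbp5, a co-chaperone that feeds back on the receptor, had 774, 705, 792 and 739 CPM in knockout and 772, 871 and 948 CPM in wild-type libraries and was not called (-0.20 ± 0.09 SE). The groups were apart for Tsc22d3 and overlapped for Fkbp5. Zbtb16, a zinc-finger repressor, had 17.2, 14.8, 19.9 and 18.4 CPM in knockout and 23.3, 31.4 and 35 CPM in wild-type libraries (-0.77 ± 0.18 SE, adjusted p = 0.0039). Jaml, a junctional adhesion protein of leukocytes, had 68.3, 39.9, 57.0 and 56.1 CPM in knockout and 15.2, 22.3 and 32.5 CPM in wild-type libraries (1.24 ± 0.20 SE, adjusted p = 0.00017). Dusp1, the phosphatase that shuts off p38 and JNK, had 81.8, 44.3, 58.6 and 55.3 CPM in knockout and 144, 196 and 134 CPM in wild-type libraries (-1.40 ± 0.25 SE, adjusted p = 0.00046). All 3 were free of overlap, Jaml higher and Zbtb16 and Dusp1 lower. Cd163, the haemoglobin scavenger receptor, was lower as well, at 6.65 to 10.3 CPM in knockout and 13.2 to 18.6 CPM in wild-type libraries (-0.89 ± 0.20 SE). Errfi1, an inhibitor of EGF receptor signalling, had 12.3 to 16.9 CPM in knockout and 23.3 to 53.6 CPM in wild-type libraries. Lcn2, lipocalin 2, had 1.35 to 3.10 CPM in knockout and 13.6 to 32.7 CPM in wild-type libraries. Errfi1 and Lcn2 followed the stromal and neutrophil residuals (r = 0.95 and 0.90 for Errfi1, 0.68 and 0.78 for Lcn2). Klf9, Klf4, Mertk and Mrc1 were not called, with log2 fold changes of -0.13 ± 0.11, -0.08 ± 0.29, -0.14 ± 0.11 and 0.46 ± 0.19 (SE). By the rule above, 0 of the 13 called targets were told apart. Tsc22d3, Jaml, Dusp1 and Cd163 were not called in the fit with list means, and Zbtb16 had r of -0.60 and -0.72.

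Many genes of glycolysis and the hypoxia response were lower. Of 22 tested, 14 were lower and 0 higher in knockout cells, 63.6% against 10.5% of all genes called lower, and all 22 log2 fold changes were below 0, with a median of -0.32. With the stromal and neutrophil list means as covariates 5 members were called lower. Gpi1, Ankrd37 and Slc16a3 were told apart. These genes are known targets of HIF, a transcription factor that low oxygen stabilises and that binds a core of the letters ACGTG. The 250 bases before the RefSeq start of the 3 members with the smallest adjusted p are shown, since these 3 were all lower, 5′ to 3′ on the gene's strand, with each ACGTG or its complement in capitals.
Egln3, chr12:54203875-54204124, minus strand: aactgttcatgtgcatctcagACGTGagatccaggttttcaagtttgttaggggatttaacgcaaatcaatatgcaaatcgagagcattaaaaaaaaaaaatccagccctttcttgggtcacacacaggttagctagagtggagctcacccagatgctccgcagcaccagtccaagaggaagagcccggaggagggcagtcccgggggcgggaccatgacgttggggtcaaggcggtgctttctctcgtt
Ankrd37, chr8:45999851-46000100, minus strand: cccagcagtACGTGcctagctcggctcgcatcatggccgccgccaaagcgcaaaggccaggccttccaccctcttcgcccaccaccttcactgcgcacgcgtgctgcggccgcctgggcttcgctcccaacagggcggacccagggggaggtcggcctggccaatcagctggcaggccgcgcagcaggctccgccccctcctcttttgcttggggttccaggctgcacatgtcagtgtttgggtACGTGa
Slc16a3, chr11:120948817-120949066, plus strand: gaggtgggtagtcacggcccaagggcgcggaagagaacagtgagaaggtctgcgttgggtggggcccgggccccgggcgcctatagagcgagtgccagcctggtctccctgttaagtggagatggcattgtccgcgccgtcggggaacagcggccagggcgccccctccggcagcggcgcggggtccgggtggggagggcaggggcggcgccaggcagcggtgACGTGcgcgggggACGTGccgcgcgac
The sequences are RefSeq's, on GRCm38.p6, and hold the motif on either strand in 1 place for Egln3 and in 2 places each for Ankrd37 and Slc16a3. A window with the motif was found for 14 of the 22 list genes (63.6%), against 24.7% of the 10614 tested genes that had a window and 16.6% of all 32851 windows. The motif was present for 10 of the 14 lower members and 4 of the 8 that were not called. A match of letters is a description and not evidence of binding.

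Egln3, a prolyl hydroxylase that marks HIF for breakdown, had 1.02, 0.969, 1.68 and 0.995 CPM in knockout and 6.57, 4.82 and 6.21 CPM in wild-type libraries (-2.32 ± 0.30 SE, edgeR adjusted p = 8.64e-06). Ankrd37, an ankyrin-repeat protein, had 1.02, 0.674, 1.18 and 0.715 CPM in knockout and 3.48, 2.54 and 3.36 CPM in wild-type libraries (-1.80 ± 0.19 SE, adjusted p = 5.27e-07). Slc16a3, the lactate exporter MCT4, had 30.9, 32.7, 36.1 and 29.1 CPM in knockout and 61.9, 62.2 and 67.3 CPM in wild-type libraries (-0.99 ± 0.14 SE, adjusted p = 3.7e-05). Every knockout library lay below every wild-type library for all 3, and the low levels of Egln3 and Ankrd37 limit their precision. Egln3 followed both lists (r = 0.51 and 0.52). Slc2a1, the glucose transporter GLUT1, had 51.6 to 61.3 CPM in knockout and 90.1 to 102 CPM in wild-type libraries (-0.75 ± 0.11 SE), and it followed the stromal residual (r = 0.77). Gpi1, the isomerase at the head of glycolysis, had 487, 516, 522 and 493 CPM in knockout and 617, 630 and 713 CPM in wild-type libraries (-0.37 ± 0.06 SE). Pkm, pyruvate kinase, had 1326 to 1664 CPM in knockout and 2185 to 2355 CPM in wild-type libraries (-0.59 ± 0.11 SE). Vegfa, the angiogenic growth factor, had 2.45, 1.35, 2.71 and 2.18 CPM in knockout and 14.1, 9.49 and 5.47 CPM in wild-type libraries. Wild-type replicate 1 was the highest for Egln3, Ankrd37, Vegfa and Slc2a1 but not for Gpi1 or Slc16a3.

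Several lipid genes were called. Of 25 tested genes that burn or store fatty acids, 6 were lower and 1 higher in knockout cells, 28.0% called against 17.2% of all genes, with a median of -0.01, and 3 were called with covariates. Lpl, the lipoprotein lipase that frees fatty acids from triglycerides, had 493, 570, 404 and 498 CPM in knockout and 1165, 1171 and 1018 CPM in wild-type libraries (-1.19 ± 0.12 SE, edgeR adjusted p = 2.63e-07). Lipa, the acid lipase of lysosomes, had 648, 563, 596 and 602 CPM in knockout and 879, 913 and 908 CPM in wild-type libraries (-0.58 ± 0.06 SE, adjusted p = 2.5e-07). Both were told apart, and in both every knockout library lay lower. Cd36, a receptor for fatty acids and oxidised lipoproteins, had 483, 642, 488 and 551 CPM in knockout and 1579, 1166 and 1208 CPM in wild-type libraries (-1.28 ± 0.13 SE). Plin2, a coat protein of lipid droplets, had 632 to 788 CPM in knockout and 947 to 1091 CPM in wild-type libraries. Cd36 and Plin2 followed the stromal residual with r of 0.64 and 0.59. Of 23 tested genes of cholesterol synthesis, 7 were higher and 0 lower, 30.4% against 6.7% of all genes called higher, with a median of 0.20. The count was 3 without wild-type replicate 2 and 1 with covariates. Among them Ebp, a sterol isomerase, had 79.2, 76.6, 76.0 and 75.0 CPM in knockout and 61.6, 63.4 and 60.0 CPM in wild-type libraries (0.31 ± 0.05 SE) and was told apart. Mvd, Tm7sf2 and Hmgcs1, enzymes of the same route, were higher by 0.46 ± 0.09, 0.35 ± 0.09 and 0.34 ± 0.09 on the log2 scale, and the call of Hmgcs1 was lost without wild-type replicate 2. Of 32 lysosomal genes 8 were higher and 1, Lipa, was lower, 28.1% called against 17.2% of all genes. The 9 calls became 4 without knockout replicate 1 or wild-type replicate 3, and 5 without knockout replicate 4, without wild-type replicate 2 or with covariates. Hexa, a subunit of hexosaminidase, had 1311, 1162, 1180 and 1215 CPM in knockout and 946, 960 and 907 CPM in wild-type libraries (0.38 ± 0.07 SE), and Ctss, cathepsin S, had 2221 to 2815 CPM in knockout and 1841 to 1875 CPM in wild-type libraries. The groups overlapped for neither.

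**Figure D4:**
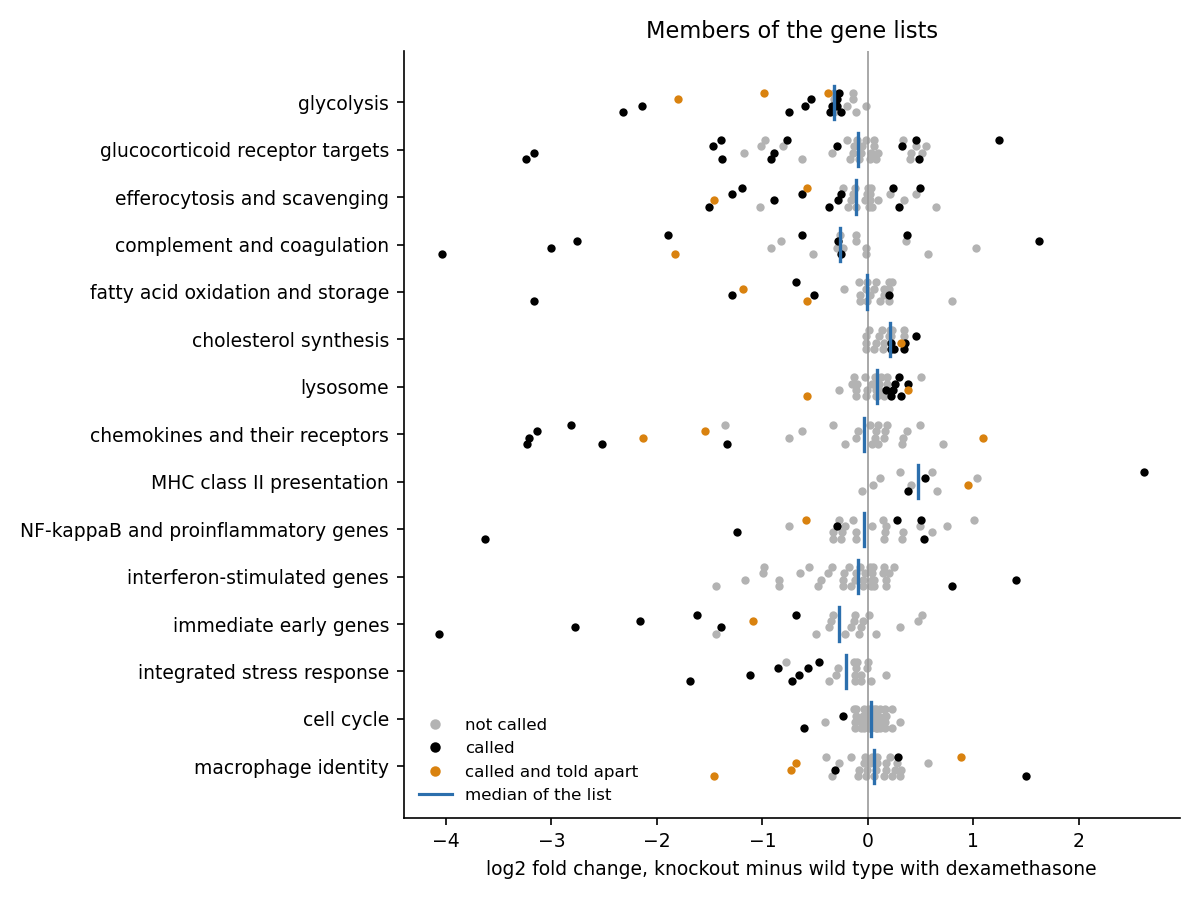
Log2 fold change, knockout minus wild type with dexamethasone, of every tested member of 15 gene lists, 1 row each. Grey points were not called, black points were called and orange points were called and told apart, with a blue bar at the median of the list, which lies furthest below 0 for glycolysis (-0.32) and furthest above for MHC class II presentation (0.48).

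Of 33 genes of efferocytosis and scavenging, 10 were lower and 3 higher in knockout cells, 39.4% called against 17.2% of all genes. The 13 calls became 8 without wild-type replicate 1 or replicate 2, and 5 with covariates. C1qa, a chain of complement C1q, had 693, 587, 753 and 542 CPM in knockout and 972, 992 and 1020 CPM in wild-type libraries (-0.63 ± 0.12 SE, edgeR adjusted p = 0.00051). Axl, a receptor for cells that display phosphatidylserine, had 18.4 to 25.4 CPM in knockout and 35.1 to 97.9 CPM in wild-type libraries, in step with the neutrophil residual (r = 0.94), and its call was lost without wild-type replicate 1. Its relative Mertk, the main efferocytosis receptor of these cells, had 364, 324, 367 and 377 CPM in knockout and 354, 434 and 398 CPM in wild-type libraries. The Mertk groups overlapped and those of C1qa and Axl did not. Cd300a, an inhibitory receptor for phosphatidylserine, was higher by 0.50 ± 0.09 on the log2 scale. Of 23 complement and coagulation genes 8 were lower and 2 higher, 43.5% called against 17.2% of all genes. The 10 calls became 6 without wild-type replicate 1 and 3 with covariates. Serpinb2, an inhibitor of plasminogen activators, had 0.295 to 0.463 CPM in knockout and 1.18 to 5.42 CPM in wild-type libraries, without overlap, and followed the neutrophil residual (r = 0.88).

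Of 28 tested NF-kappaB and proinflammatory genes, 3 were higher and 4 lower in knockout cells, 25.0% called against 17.2% of all genes, with a median of -0.04, and 4 were called with only the compared groups in the fit. Tnf had 55, 41.8, 58.1 and 42.2 CPM in knockout and 47.9, 63.6 and 51.8 CPM in wild-type libraries. Il1b was below 1 CPM in all 7 libraries. Neither was called, and the groups overlapped. Tnip3, a brake on NF-kappaB, had 11.1, 11.1, 12.0 and 11.1 CPM in knockout and 15.3, 18.3 and 17.4 CPM in wild-type libraries (-0.58 ± 0.12 SE, edgeR adjusted p = 0.00096) and was told apart. Ptgs2, the inducible cyclooxygenase, had 0.497 to 1.03 CPM in knockout and 3.40 to 19.8 CPM in wild-type libraries and followed the stromal residual (r = 0.95). Cd40, a costimulatory receptor, was lower (-1.24 ± 0.30 SE) and Icam1, an adhesion ligand, was higher (0.28 ± 0.06 SE). Of 38 interferon-stimulated genes 2 were higher, the guanylate-binding proteins Gbp3 and Gbp5, and 0 lower, 5.26% called against 17.2% of all genes. Without the 4 libraries high in Arg1 (knockout replicate 2, wild-type replicate 1 and 2 vehicle-treated knockout libraries) 2 were higher and 5 lower, and with covariates 0 were higher and 6 lower. Rsad2, an antiviral enzyme, was not called, at -0.85 ± 0.35 on the log2 scale (SE). Its log2 fold change was 0.006 without wild-type replicate 2. It was called lower without wild-type replicate 3 (-1.18) and without the 4 libraries high in Arg1 (-1.14).

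Of 12 genes for MHC class II presentation, 4 were higher in knockout cells and 0 lower, 33.3% against 6.7% of all genes called higher, with a median of 0.48. Ciita, the master regulator of these genes, had 1.06, 1.22, 0.784 and 1.96 CPM in knockout and 0.348, 0.184 and 0.111 CPM in wild-type libraries (2.62 ± 0.45 SE, edgeR adjusted p = 0.00027). Cd86, a costimulatory ligand, had 23.2, 20.6, 24.3 and 27.5 CPM in knockout and 11.8, 12.2 and 13 CPM in wild-type libraries (0.95 ± 0.18 SE, adjusted p = 0.00075) and was told apart. Neither gene's libraries overlapped, at low levels for Ciita. The other called members were Ctss and H2-DMa, a peptide-loading chaperone. The call of H2-DMa was lost when any of 4 libraries was left out. Of the 4 called members, Ciita, Ctss and H2-DMa were not called with the stromal and neutrophil list means as covariates, while Cd86 was. Of 29 IL4 and alternative activation genes 3 were lower, Cd36, Fn1 and Chil3, and 0 higher, 10.3% called against 17.2% of all genes. The count was 5 without knockout replicate 2 or wild-type replicate 3, and 1 with covariates. Fn1, fibronectin, had 7.90 to 23.6 CPM in knockout and 83.1 to 271 CPM in wild-type libraries, in step with the stromal residual (r = 0.84). The call of Chil3, a chitinase-like protein, was lost in 5 of the 7 fits that leave out a library. Plxdc2 was not called.

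Of 30 tested chemokines and chemokine receptors, 8 were lower and 1 higher in knockout cells, 30.0% called against 17.2% of all genes. Of the 30, called or not, 20 had an r of 0.5 or more with the stromal or neutrophil list. Beside Ccr3, Cxcr4, the receptor that keeps cells in the marrow, was told apart, with 322, 246, 289 and 325 CPM in knockout and 137, 138 and 141 CPM in wild-type libraries (1.09 ± 0.13 SE, edgeR adjusted p = 1.71e-06). Cxcl14, a chemokine of epithelia and fibroblasts, had 0.674 to 1.80 CPM in knockout and 5.80 to 9.06 CPM in wild-type libraries (-2.52 ± 0.33 SE). Cxcr4 was higher and Cxcl14 lower in every knockout library. Of 24 immediate early genes 7 were lower and 0 higher, 29.2% against 10.5% of all genes called lower. The count was 3 without wild-type replicate 2, 4 without knockout replicate 4 and 1 with covariates. Fosl1, an AP-1 subunit, had 0.155 to 0.632 CPM in knockout and 4.41 to 9.5 CPM in wild-type libraries (-4.07 ± 0.57 SE) and followed the stromal residual (r = 0.74). Klf2, a quiescence factor, had 48.8, 28.1, 39.9 and 23.1 CPM in knockout and 54.3, 95.2 and 72.4 CPM in wild-type libraries (-1.09 ± 0.28 SE) and was told apart, but its call was lost without wild-type replicate 2. Fosb was lower at under 1 CPM in all 7 libraries.

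Of 22 integrated stress response genes 7 were lower and 0 higher in knockout cells, 31.8% against 10.5% of all genes called lower. The count was 1 without wild-type replicate 1, 3 without knockout replicate 1, 11 without knockout replicate 2, 4 without knockout replicate 3 or replicate 4, and 1 with only the compared groups or with covariates. Slc7a11, the cystine transporter, had 23.0, 17.8, 24.5 and 22.7 CPM in knockout and 74.7, 64.4 and 73.8 CPM in wild-type libraries (-1.69 ± 0.21 SE, edgeR adjusted p = 8.3e-06). Its groups did not overlap, and its residual r was 0.68 with the stromal and 0.74 with the neutrophil list. The calls of Trib3, Slc7a5 and Vldlr were lost without wild-type replicate 1, that of Slc7a5 also without knockout replicate 1, and that of Vldlr also without knockout replicate 3 and without wild-type replicate 3. Of 42 cell cycle genes 2 were lower and 0 higher, 4.76% called against 17.2% of all genes. The count was 1 without wild-type replicate 1, and 6 were called lower with covariates. Mcm6, a helicase subunit of replication origins, had 193, 220, 214 and 212 CPM in knockout and 322, 317 and 316 CPM in wild-type libraries (-0.60 ± 0.08 SE). Its partner Mcm3 had 214 to 255 CPM in knockout and 206 to 217 CPM in wild-type libraries and was not called. Pcna, the replication clamp, was lower (-0.24 ± 0.06 SE), a call lost without wild-type replicate 1, and Ccnd1 was not called. Of 11 tested osteoclast and fusion genes 3 were lower and 0 higher, 27.3% against 10.5% of all genes called lower. Tnfrsf11a, the receptor for the osteoclast factor RANKL, had 94.0 to 132 CPM in knockout and 166 to 206 CPM in wild-type libraries (-0.80 ± 0.13 SE) and was told apart, while Mmp9 followed the stromal residual (r = 0.89) and the call of Ocstamp was lost without wild-type replicate 1 and without replicate 2.

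The genotypes were also compared with vehicle, corticosterone and IL4, each in libraries of their own. The labels do not say whether libraries of the same number share a mouse, so these comparisons may not be independent. Of the 2512 genes called with dexamethasone, 1634 (65.0%) were called in the same direction with vehicle, 1735 (69.1%) with corticosterone and 1119 (44.5%) with IL4, where 2738, 2102 and 1802 genes were called in all. Called in the opposite direction were 5, 0 and 2. In all 4 comparisons 889 genes (6.09%) were called in the same direction, 241 higher and 648 lower, and 139 of these were told apart. Parvg was higher by 1.54 with vehicle, 1.75 with corticosterone and 1.48 with IL4, and Gpr141 by 1.14, 1.76 and 1.64 on the log2 scale. Col1a1 had log2 fold changes of -5.07, -4.87 and -5.37, and stromal sums were lower in knockout cultures under every treatment, at 602 to 830 CPM in knockout and 1515 to 3580 CPM in wild-type cultures with vehicle. Another 417 genes were called with dexamethasone alone, but the difference from vehicle itself passed the test for only 2 of them.

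The genotype difference with dexamethasone minus that with vehicle was called for 27 genes (0.185%), 7 positive and 20 negative, and 880 genes had an unadjusted p under 0.05. Lpl showed a negative one, at -1.57 ± 0.17 (SE, edgeR adjusted p = 5.6e-05). It was lower with dexamethasone (491 ± 68.0 CPM in knockout, 1118 ± 86.4 CPM in wild type, SD). With vehicle it was called higher in knockout cells (1938 ± 291 CPM in knockout, 1491 ± 265 CPM in wild type, SD), at 0.38 on the log2 scale (edgeR adjusted p = 0.030). Ccr3 had a difference of -1.26 ± 0.22 and Zbtb16 of -1.56 ± 0.33 (SE, adjusted p = 0.012 and 0.047). Zbtb16 too was called higher in knockout cells with vehicle (log2 fold change 0.79, edgeR adjusted p = 0.047). Its levels with vehicle were low, at 1.22 ± 0.30 CPM in knockout and 0.70 ± 0.26 CPM in wild type (SD), which limits the precision of both values. Ms4a4a, a membrane protein of alternatively activated macrophages, was higher in knockout cells with vehicle (152.6 ± 64.6 CPM in knockout, 23.7 ± 2.39 CPM in wild type, SD) and was not called with dexamethasone (656 ± 54.9 CPM in knockout, 459.9 ± 39.3 CPM in wild type, SD), a difference of -2.17 ± 0.30 (SE, adjusted p = 0.00086). Dlg3, a scaffold protein, had -1.37 and Lipa -0.41. Positive differences were those of Alox5 (1.04 ± 0.19 SE), Pde4b, a phosphodiesterase that degrades cyclic AMP (0.90), Ppfibp2, a liprin (0.88), Osgin1, a gene of the oxidative stress response (0.64), and Ggta1, an enzyme of alpha-galactose synthesis (0.49). The count was 17 without knockout replicate 1, 17 without wild-type replicate 1, 15 without wild-type replicate 2 and 3 without the 4 wild-type libraries numbered 1.

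**Figure D5:**
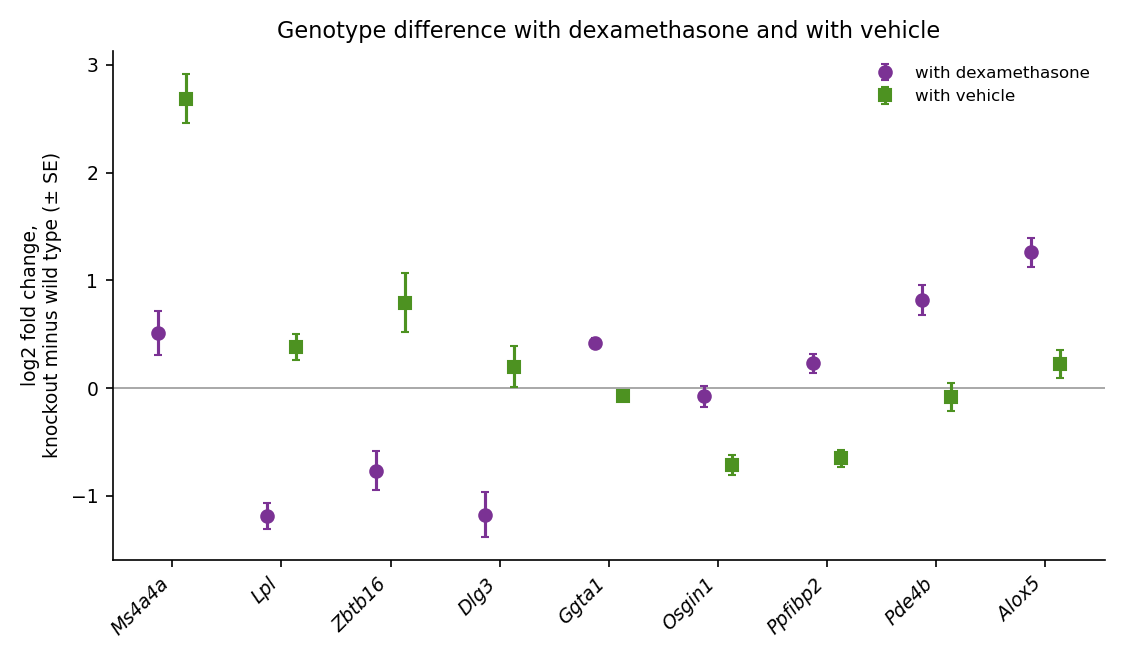
Log2 fold change, knockout minus wild type (± SE), with dexamethasone (purple circles) and with vehicle (green squares) for 4 negative and 5 positive called differences among the largest of each sign. Lpl lay at -1.19 with dexamethasone and 0.38 with vehicle, and Ms4a4a lay at 2.69 with vehicle and 0.51 with dexamethasone.

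Genes close to Ncoa2 were looked at, since a floxed allele carries flanking sequence with it. Within 10 Mb of the gene on chromosome 1, 47 other genes were tested and 10 (21.3%) were called, 9 lower and 1 higher, against 17.2% of all genes. Of these Eya1 and Gsta3 were told apart. Eya1 (bases 14168954 to 14310235 of chromosome 1, GRCm38) had 5.68, 7.04, 5.95 and 7.24 CPM in knockout and 26.4, 25.9 and 24.9 CPM in wild-type libraries (-1.98 ± 0.15 SE, edgeR adjusted p = 1.72e-09). Gsta3 (bases 21240589 to 21265661) had 25.0, 11.6, 21.5 and 9.67 CPM in knockout and 48.5, 52.2 and 73.4 CPM in wild-type libraries (-1.79 ± 0.26 SE). Eya1 replicates were tight and those of Gsta3 spread, without overlap in either case. Whether these differences come from the allele's flanking sequence was not tested.

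Arg1, the arginase of alternative activation, varied within both groups. It had 0.277, 68.0, 0.820 and 12.2 CPM in knockout and 67.1, 0.993 and 2.07 CPM in wild-type libraries and was not called (-0.17 ± 1.23 SE). Knockout replicate 2 and wild-type replicate 1 were thus far above their groups without IL4 in the medium. Without both, and without replicates 2 and 3 of the knockout cultures with vehicle, 1378 genes were called.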

How the data were processed

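Polyadenylated RNA was sequenced as paired reads. Per the submitters' processing notes, the tools were fastp 0.23.2, STAR 2.7.0, featureCounts and edgeR 3.38.4, and the genome was mm10. No strand setting of the counting is named in those notes. The authors deposited raw counts per gene for 27 libraries, 29872 genes in all, of which 29815 matched the annotation used for positions (GENCODE vM21, GRCm38).

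From these counts, genes were kept by edgeR's filterByExpr with a minimum count of 10, scaled by TMM and fitted with edgeR 4.0.16 (R 4.3.3), using 1 mean for each of the 8 groups and the quasi-likelihood test, with Benjamini-Hochberg adjustment over 14589 genes. CPM values use the TMM library sizes. Depth was 20162729 to 32384059 counts. On simulated counts, 90.7% of 107 genes changed 2-fold and 100% of 93 genes changed 4-fold were called, with 5 false calls among 195. The simulated libraries were independent, had no shift in cell types and changed only well-counted genes. These rates therefore need not hold for the real comparison. Single summed levels were compared by exact permutation of the samples.

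Named genes are the 10 largest rises and falls of each kind described, up to 4 genes per list by adjusted p, a set of receptor and macrophage genes, and the 5 largest called treatment differences of each sign. Csf1r, Adgre1, Fcgr2b, Slc11a1, Ptprc, Igfbp4, Mmp8, Cnn1, Stfa1, Gpi1, Pkm, Vegfa, Axl and the pseudogenes of the closing section lie outside that rule and were chosen after their values were seen. A few genes that the rule names are not reported here. The members and the gene lists were chosen with earlier results of these data known. Alternatives were other scaling, filters and tools, fewer groups, the replicate number as a block, list means as covariates, and fits without single libraries.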

Additional observations from a re-analysis of the deposited data

Results flagged for a closer look

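Among the 4 knockout libraries, 1 library lay far from the other 3 for several named genes, by Dixon's 95% limit. These were the highest libraries for Ccnd1 (271 CPM), Ebf1 (0.57 CPM), Egln3 (1.68 CPM), Mcpt8 (0.0462 CPM), Ncoa4 (89.7 CPM) and Tnip3 (12 CPM). The other 3 libraries had 0 CPM for Mcpt8 and 11.1 CPM for Tnip3. About 1 in 20 groups passes this limit by chance, and 6 of the 155 values tested passed it.

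The genotype difference with dexamethasone differed from that with vehicle, by the test of the difference itself, for Ms4a4a (-2.17 log2 units), Lpl (-1.57), Zbtb16 (-1.56), Dlg3 (-1.37), Ccr3 (-1.26), Lipa (-0.41), Ggta1 (0.49), Osgin1 (0.64), Ppfibp2 (0.88), Pde4b (0.90) and Alox5 (1.04).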

How the results depend on the processing

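Calls between the genotypes with dexamethasone numbered 2512. They were 801 with the list means as covariates, 1378 without the 4 libraries high in Arg1, and 1540 to 2285 when 1 library was left out. Genes called alike under all 4 treatments (889) fell to 438 with only the groups compared, 213 with covariates (52.1% higher in knockout, against 27.1%), 565 with the libraries high in Arg1 left out and 592 without the 4 wild-type ones numbered 1. Differences between dexamethasone and vehicle (27) became 81 with DESeq2, 10 with only the groups compared, 46 with covariates, 12 with the libraries high in Arg1 left out, 3 without the wild-type ones numbered 1, and 15 to 28 when 1 library was left out. Genes told apart (314) became 2 with only the groups compared, 19 without the wild-type libraries numbered 1 and 126 to 318 when 1 library was left out. The called neighbours of Ncoa2 (10) became 4 with covariates. The summed neutrophil level, at a difference of -0.30 log2 units, was at 0.00134 without wild-type replicate 1 and knockout replicate 2, and at -0.44 to -0.05 when 1 library was left out. The cause of these shifts was not tested.

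Under the covariates the sign turned for Chil3 (0.49), Ebf1 (0.52), Errfi1 (0.22), Hsp90aa1 (0.066), Ncoa4 (-0.043), Ptgs2 (0.30), Slc7a5 (0.025), Axl (0.29) and Csf1r (-0.38). Only Csf1r among these was called in that fit, as lower in knockout cells (edgeR adjusted p = 0.043). With dexamethasone, knockout and wild-type libraries of the same number did not deviate together (correlations of -0.24, -0.18 and 0.03). Libraries of the same number within a genotype were not compared in this way across treatments. Fitting the replicate number as a block gave 2966 calls with dexamethasone, 1073 under all 4 treatments, 53 differences between treatments and 488 genes told apart. RLE scaling gave 2498 calls, no filter on low counts 1960 and DESeq2 2668. Leaving out all 4 wild-type libraries numbered 1 was chosen after seeing the data.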

Other observations

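Processed pseudogenes gave some of the widest separations of the genotypes. Gm11942, on chromosome 4, had 45.4, 42.6, 39.5 and 37.6 CPM in knockout and 0.796, 0.588 and 0.333 CPM in wild-type libraries, 73.8-fold higher in knockout cells (log2 fold change 6.21 ± 0.25 SE, edgeR adjusted p = 2.08e-14). Gm6166, on chromosome 9, had 91.4, 57.0, 85.3 and 98.4 CPM in knockout and 2.09, 2.98 and 2.51 CPM in wild-type libraries, 32.5-fold higher. With vehicle, corticosterone and IL4 the log2 fold changes were 6.06, 5.95 and 5.89 for Gm11942 and 4.94, 4.92 and 4.31 for Gm6166. Processed pseudogenes share sequence with their parent genes, so their counts are uncertain, and the cause of the difference was not tested.

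By chromosome, the share of tested genes that were told apart was highest on chromosome 9, at 4.04% (32 of 792), against 2.15% of all genes tested. The share called there was 23.0%. On chromosome 1, which carries Ncoa2, 2.97% were told apart. No test was made of these shares.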
